A study of Mus musculus with 16 samples.

Results

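The expression of 9 genes of glucose and glycogen metabolism was followed in mouse liver with or without the histone chaperone HIRA in hepatocytes, before and after liver regeneration. They were taken by symbol (G6pc, Pck1, Fbp1, Pklr, Gys2, Pygl, Ppp1r3b, Ppp1r3c and Ppp1r3g) from a table of 55421 gene IDs, and all 9 passed the filter of at least 10 counts over the 16 libraries. Poly-A-selected liver RNA was sequenced from male mice in 4 groups of 4 libraries, which crossed genotype (control or HIRA KO) with time (before or after regeneration). Control mice were wildtype mice given adeno-associated virus 8 with Cre under the hepatocyte promoter Tbg, or with saCas9 and a guide RNA to Rosa26. HIRA KO mice were HIRA fl/fl mice given the Cre virus, or wildtype mice given saCas9 with a guide to Hira, and each group held 2 libraries of each approach. Every mouse had thus received a virus, at 6 months of age, and the Tbg promoter limits the enzymes to hepatocytes, so that other liver cells keep an intact Hira gene. Surgery 4 weeks later removed liver lobes, which gave the tissue before regeneration, and the remnant was taken 5 days after that. Lobe, way of collection (surgery or euthanasia) and time changed together between before and after, so that they cannot be told apart.

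The liver holds blood glucose steady between meals. It breaks down glycogen, which glycogen phosphorylase (Pygl) opens, and makes new glucose by gluconeogenesis, in which phosphoenolpyruvate carboxykinase (Pck1), fructose-1,6-bisphosphatase (Fbp1) and glucose-6-phosphatase (G6pc) carry the steps that glycolysis cannot run backwards. After a meal, pyruvate kinase (Pklr) closes glycolysis and glycogen synthase (Gys2) stores glucose, aided by the Ppp1r3 proteins, which tether protein phosphatase 1 to glycogen. Glucagon and glucocorticoids induce Pck1 and G6pc, and insulin represses them, so that their messages follow feeding and the hour of the day.

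The promoter stretches of 4 of the genes are shown because each holds a motif through which glucose genes are known to answer hormones or sugar. Of the 9 genes, 7 matched the RefSeq promoter table (build GRCm38.p6). Each stretch ends at the base before the gene's nearest annotated exon, is read 5′ to 3′ on the gene's strand, and carries in capitals the motif letters searched. The motifs were TTACGT and TGACG (the core of the cyclic AMP response element, which overlap in the Pck1 run), TGTTTT (a core bound by FOXO factors), CACGTG (an E-box) and the carbohydrate response element of Pklr (CACGGG and CCCGTG with 5 bases between them), all sought on both strands.

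Pck1, chr2:173152823-173153047, plus strand: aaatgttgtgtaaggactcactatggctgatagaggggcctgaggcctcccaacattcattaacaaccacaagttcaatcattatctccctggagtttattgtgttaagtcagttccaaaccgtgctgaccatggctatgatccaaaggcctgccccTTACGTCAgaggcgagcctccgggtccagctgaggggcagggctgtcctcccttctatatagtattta

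G6pc, chr11:101367466-101367560, plus strand: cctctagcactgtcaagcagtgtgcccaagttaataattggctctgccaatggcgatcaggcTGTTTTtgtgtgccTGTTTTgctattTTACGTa

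Pklr, chr3:89136373-89136571, plus strand: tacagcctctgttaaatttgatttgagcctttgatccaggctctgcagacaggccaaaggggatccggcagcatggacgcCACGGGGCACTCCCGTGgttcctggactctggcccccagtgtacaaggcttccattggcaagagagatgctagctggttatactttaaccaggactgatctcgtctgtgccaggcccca

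Ppp1r3c, chr19:36736654-36736854, minus strand: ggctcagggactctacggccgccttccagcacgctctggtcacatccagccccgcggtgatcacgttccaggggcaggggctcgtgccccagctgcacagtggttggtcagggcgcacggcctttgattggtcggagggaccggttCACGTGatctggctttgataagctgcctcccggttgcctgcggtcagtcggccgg

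Over 32851 promoter windows of the RefSeq table, each running from 250 bases upstream of a start site into the gene, 2.40% held TTACGT, which lay in the Pck1 and G6pc windows. CACGTG was found in 6.02% of windows and, among these genes, in that of Ppp1r3c. TGTTTT was found in 19.8% and lay in the G6pc window, and TGACG was found in 17.8% and lay in those of Pck1, Pygl and Ppp1r3g. The long Pklr element was found in 0.00304% of windows, that is in 1, the Pklr window itself. These are matches of letters and no measure of binding.

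Total counts per library ran from 15103059 to 21738619, and the 9 genes together took 0.231% to 0.758% of them. Hira itself had 5.62, 6.08, 6.18 and 5.21 counts scaled to library size (CPM) in control before regeneration, against 3.39, 3.13, 3.26 and 4.38 in HIRA KO. After regeneration it had 5.51, 4.99, 5.89 and 6.29 CPM in control, against 3.17, 3.29, 3.04 and 4.56 in HIRA KO. The groups did not overlap at either time, and HIRA KO held 61.4% and 62.0% of the control mean (exact two-sided permutation p = 0.0286 each, the smallest that 4 against 4 allows). In edgeR, adjusted over all genes, Hira did not pass at either time, at -0.70 ± 0.170 (adjusted p = 0.129) before and -0.69 ± 0.169 (0.0666) after regeneration. Over 8 other analyses of all libraries it passed in 1 before (DESeq2, adjusted p = 0.0131) and in 4 after regeneration (DESeq2, both limma fits and edgeR with another filter, lowest adjusted p = 0.00473), and without HIRA KO library 4 it passed after regeneration (0.0267). The 6 hepatocyte markers summed to between 102795 and 167565 CPM over the libraries. On the second principal component of all genes, with 26.5% of the variance, HIRA KO libraries 1 and 2 before regeneration (47.4 and 36.6) and 1 and 2 after it (40.2 and 36.2) lay apart from the other 12, which ran from -31.2 to 1.14. Library numbers are those of the table's columns and do not tie a library before regeneration to one after it. For some of the named results, the value or call without the 4 HIRA KO libraries is given too.

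Per transcript length, the gluconeogenic enzymes led before regeneration. In control before regeneration, the deposited FPKM, a count of fragments corrected for both the length of the transcript and depth, averaged 928 ± 160 for Pck1, 541 ± 98.7 for Fbp1, 319 ± 99.6 for G6pc, 184 ± 20.0 for Pygl, 147 ± 18.4 for Pklr, 60.6 ± 13.9 for Gys2, 57.2 ± 8.34 for Ppp1r3b, 20.3 ± 12.0 for Ppp1r3c and 9.21 ± 6.04 for Ppp1r3g (SD, n = 4). The ranges of neighbours in this order overlapped for G6pc and Pygl, Pygl and Pklr, Gys2 and Ppp1r3b, and Ppp1r3c and Ppp1r3g. After regeneration in control Fbp1 stood at 390 ± 87.2 FPKM and Pck1 at 314 ± 51.2, with overlapping ranges, and G6pc, at 48.0 ± 11.0, overlapped with its neighbours Pklr and Gys2. In HIRA KO the order opened with Pck1 (1065 ± 258 FPKM) and Fbp1 (744 ± 191) before regeneration, and with Fbp1 (684 ± 246) and Pck1 (480 ± 259) after it, and these pairs overlapped too. Ppp1r3g came lowest after regeneration in both genotypes, at 0.0898 ± 0.0749 and 0.133 ± 0.132 FPKM.

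**Figure D1:**
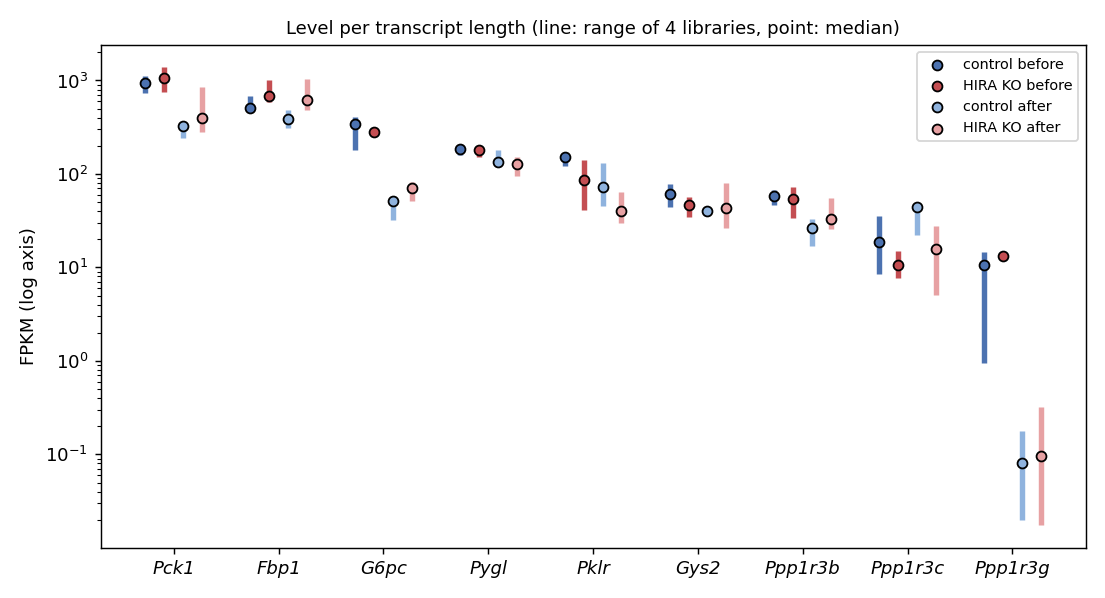
Levels of the 9 genes in FPKM on a log axis, with a line for the range of 4 libraries and a point for the median of each group. Pck1, Fbp1 and G6pc lie highest before regeneration, Fbp1 has the highest median in both groups after it, and Ppp1r3g lies under 1 FPKM in every library after it.

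The question of the first comparison was which glucose and glycogen genes differ between the resting and the regenerating liver. In control, 4 of the 9 genes fell (G6pc, Pck1, Ppp1r3b and Ppp1r3g) and none rose, beside 4.17% of all 23018 genes that fell and 10.2% that changed either way (edgeR quasi-likelihood test, Benjamini-Hochberg adjusted p under 0.05). In 5 genes every control library after regeneration lay below every one before it, beside 8.98% of all genes that did so. The median log2 fold change of the 9 was -1.06, beside 0.0029 over all genes. In HIRA KO, 4 of the 9 fell (G6pc, Pck1, Pygl and Ppp1r3g) and none rose, beside 5.53% of all genes that fell and 12.0% that changed, and in 2 genes all libraries lay lower, beside 7.45% of all genes. The median was -0.69, beside 0.02 over all genes. Without the 4 HIRA KO libraries apart on the second component, which share the estimate of spread with control, 7 of the 9 passed in control (Fbp1, Gys2 and Pygl as well), beside 17.9% of all genes in that fit, and 4 in HIRA KO (with Ppp1r3b in place of Pygl), beside 10.3%. With edgeR fitted to the HIRA KO groups alone, 2 passed there (G6pc and Ppp1r3g), beside 6.84% of all genes. In bulk liver, fewer cells that carry a message and less message per cell cannot be told apart.

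**Figure D2:**
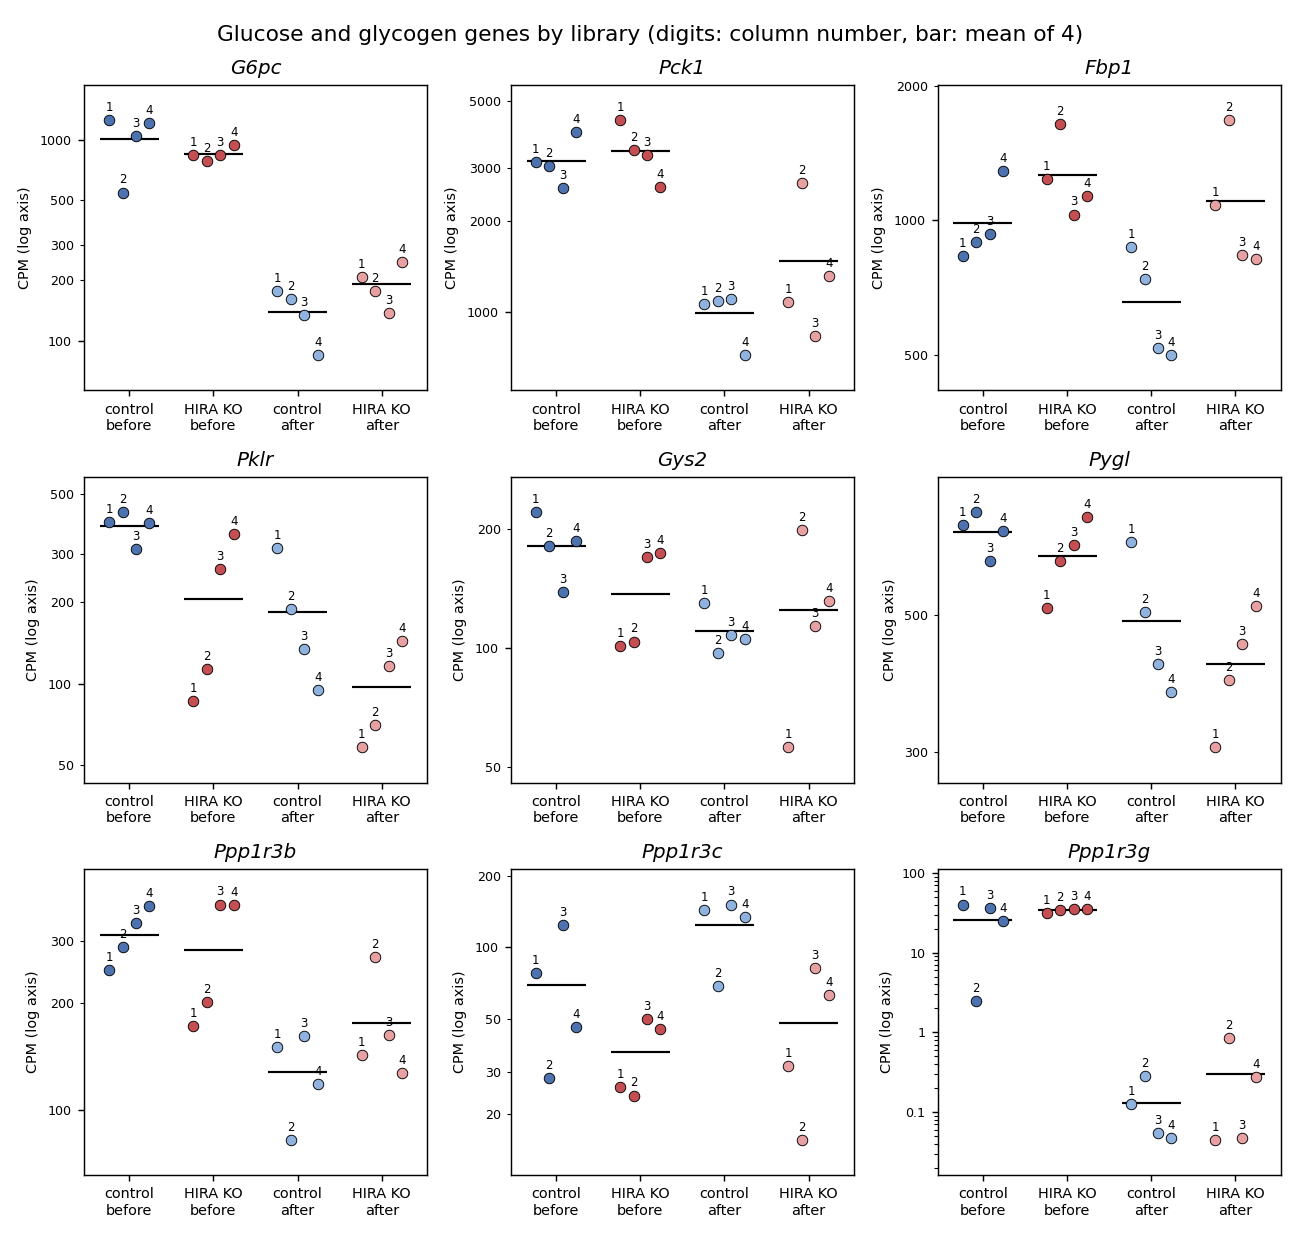
CPM of the 9 genes in each library, on log axes of their own, with the column number beside each point and a bar at the mean of 4. G6pc and Ppp1r3g lie lower in every library after regeneration than before it in both genotypes. Before regeneration Pklr, Gys2 and Ppp1r3b lie low in HIRA KO libraries 1 and 2, while Pck1 and Fbp1 have their highest HIRA KO points there.

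G6pc (ENSMUSG00000078650.2, chr11:101367561-101377903, plus strand) releases free glucose from glucose-6-phosphate, the last step of both gluconeogenesis and glycogen breakdown. In control it had 1253, 547, 1041 and 1218 CPM before regeneration and 178, 162, 135 and 85.1 after it. The groups did not overlap, and the lowest library before regeneration, library 2, still lay above all of those after it. The mean after regeneration was 13.8% of that before, a log2 fold change of -2.86 ± 0.267 (approximate SE, n = 4, edgeR adjusted p = 1.83e-05). In HIRA KO the values were 843, 786, 838 and 945 CPM before and 207, 177, 139 and 246 after. Again no library of one time lay within the range of the other, with 22.6% of the level remaining and a log2 fold change of -2.15 ± 0.260 (edgeR adjusted p = 0.000142).

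Pck1 (ENSMUSG00000027513.11, chr2:173153048-173159273, plus strand) commits oxaloacetate to glucose. In control it had 3130, 3042, 2577 and 3948 CPM before regeneration and 1066, 1084, 1105 and 719 after it. The groups were well apart, and library 4 after regeneration stood below a tight set of 3. The log2 fold change was -1.68 ± 0.292 (n = 4, edgeR adjusted p = 0.00183), with 31.3% of the mean left. In HIRA KO the values were 4321, 3442, 3322 and 2604 CPM before and 1076, 2682, 833 and 1320 after. Here the groups overlapped through library 2 after regeneration, which lay above the lowest library before it. The log2 fold change was -1.21 ± 0.288 (edgeR adjusted p = 0.0120) with all libraries, and the call was lost (adjusted p = 0.0707) when edgeR was fitted to the HIRA KO groups alone.

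Fbp1 (ENSMUSG00000069805.10, chr13:62864753-62888282, minus strand) undoes the phosphofructokinase step. Control livers held 833, 895, 931 and 1288 CPM before regeneration and 870, 737, 516 and 499 after it. HIRA KO livers held 1239, 1640, 1030 and 1132 before and 1079, 1676, 837 and 820 after. The groups overlapped in both genotypes, and neither log2 fold change passed the test, at -0.59 ± 0.243 in control (edgeR adjusted p = 0.143) and -0.19 ± 0.242 in HIRA KO (0.666). Of the 3 gluconeogenic enzymes, Fbp1 thus had the smallest fitted difference in each genotype. Without the 4 HIRA KO libraries apart on the second component Fbp1 passed in control, at -0.59 ± 0.177 (edgeR adjusted p = 0.0306). In HIRA KO it did not, at -0.37 ± 0.250 (0.387).

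Pklr (ENSMUSG00000041237.12, chr3:89136142-89146784, plus strand) makes pyruvate at the end of glycolysis in liver. Its values were 392, 427, 314 and 389 CPM in control before regeneration and 316, 189, 134 and 94.3 after it. In HIRA KO they were 86.5, 113, 264 and 355 before and 58.2, 70.1, 116 and 143 after. Control library 1 after regeneration overlapped with the lowest library before it by a small margin, and in HIRA KO libraries 1 and 2 were low at both times. Log2 fold changes of -1.06 ± 0.461 in control and -1.08 ± 0.462 in HIRA KO did not pass (edgeR adjusted p = 0.182 and 0.150).

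Gys2 (ENSMUSG00000030244.7, chr6:142422613-142473109, minus strand) adds glucose units to glycogen. In control it had 221, 182, 139 and 186 CPM before regeneration and 130, 96.8, 108 and 106 after it, so that the groups did not overlap, while the log2 fold change of -0.72 ± 0.296 did not pass (edgeR adjusted p = 0.146). In HIRA KO it had 101, 104, 170 and 175 before and 55.9, 199, 114 and 132 after. These ranges overlapped throughout, with a log2 fold change of -0.13 ± 0.294 (edgeR adjusted p = 0.824), or -0.47 ± 0.185 without the 4 libraries apart on the second component (0.119). In that fit Gys2 passed in control, at -0.73 ± 0.131 (edgeR adjusted p = 0.00158).

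Pygl (ENSMUSG00000021069.17, chr12:70190811-70231488, minus strand), the liver glycogen phosphorylase, had 700, 732, 611 and 684 CPM in control before regeneration and 656, 504, 416 and 375 after it. In HIRA KO it had 513, 611, 649 and 721 before and 305, 392, 448 and 517 after. Both pairs of groups overlapped by 1 library. The gene fell in HIRA KO, by 0.59 ± 0.183 on the log2 scale (edgeR adjusted p = 0.0449), and did not pass in control (-0.48 ± 0.183, adjusted p = 0.106). The HIRA KO call was a narrow one. It held in 2 of 8 fits with 1 library left out, those without library 1 before (adjusted p = 0.0346) and without library 4 after regeneration (0.0273), and adjusted p ranged from 0.0121 to 0.104 over the other analyses of all libraries. Without the 4 libraries apart on the second component it was 0.157, while in that fit Pygl passed in control (-0.48 ± 0.150, adjusted p = 0.0345). In the other 6 fits of HIRA KO with 1 library left out, without library 2, 3 or 4 before or 1, 2 or 3 after regeneration, adjusted p ran from 0.0667 to 0.123.

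The Ppp1r3 subunits carry protein phosphatase 1 to glycogen, where it switches the synthase on and the phosphorylase off, and the 3 subunits differed from one another. Ppp1r3b (ENSMUSG00000046794.9, chr8:35375739-35388139, plus strand), the subunit most typical of liver, had 247, 288, 336 and 377 CPM in control before regeneration and 150, 82.3, 161 and 118 after it. The groups did not overlap, and the gene fell by 1.29 ± 0.301 on the log2 scale (n = 4, edgeR adjusted p = 0.0126). In HIRA KO it had 172, 202, 380 and 379 CPM before and 143, 270, 163 and 127 after, with overlapping groups and a log2 fold change of -0.69 ± 0.297 (edgeR adjusted p = 0.147). Without library 2 after regeneration, the highest of its group, the log2 fold change was -0.96 (edgeR adjusted p = 0.0479), and without the 4 HIRA KO libraries apart on the second component it was -1.37 ± 0.278 (adjusted p = 0.00958).

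Ppp1r3c (ENSMUSG00000067279.3, chr19:36731731-36736653, minus strand) had the only positive fitted value of the 9 genes in each genotype. In control it had 77.6, 28.2, 125 and 46.2 CPM before regeneration and 144, 68.7, 151 and 134 after it. In HIRA KO it had 25.8, 23.8, 49.8 and 45.3 before and 31.6, 15.5, 81.7 and 62.9 after. Libraries of a group spread widely and the groups overlapped, and log2 fold changes of 0.85 ± 0.530 (edgeR adjusted p = 0.380) and 0.41 ± 0.532 (0.683) did not pass.

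Ppp1r3g (ENSMUSG00000050423.11, chr13:35958839-35970388, plus strand), a subunit known in liver for its rise on fasting, was the lowest of the 9 genes after regeneration. Raw counts were 809, 46, 637 and 425 in control before regeneration and 2, 5, 1 and 1 after it, and 594, 516, 514 and 565 in HIRA KO before and 1, 19, 1 and 5 after. The groups did not overlap in either genotype. In control before regeneration library 2 held 2.47 CPM against 25.2 to 40.2 in the other 3, while the 4 HIRA KO libraries lay between 31.4 and 35.4 CPM. Pooled over libraries the level before regeneration was 212 times that after it in control (exact 95% interval 111 to 464) and 109 times in HIRA KO (74.2 to 167). These intervals cover counting error only. Of the 26 counts after regeneration in HIRA KO, 19 were in library 2, and without it the ratio was 296 (143 to 737). Without control library 2 after regeneration, with 5 of the 9 counts there, it was 362 (141 to 1329). The gene fell in both genotypes (edgeR adjusted p = 0.000738 and 0.000618).

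**Figure D3:**
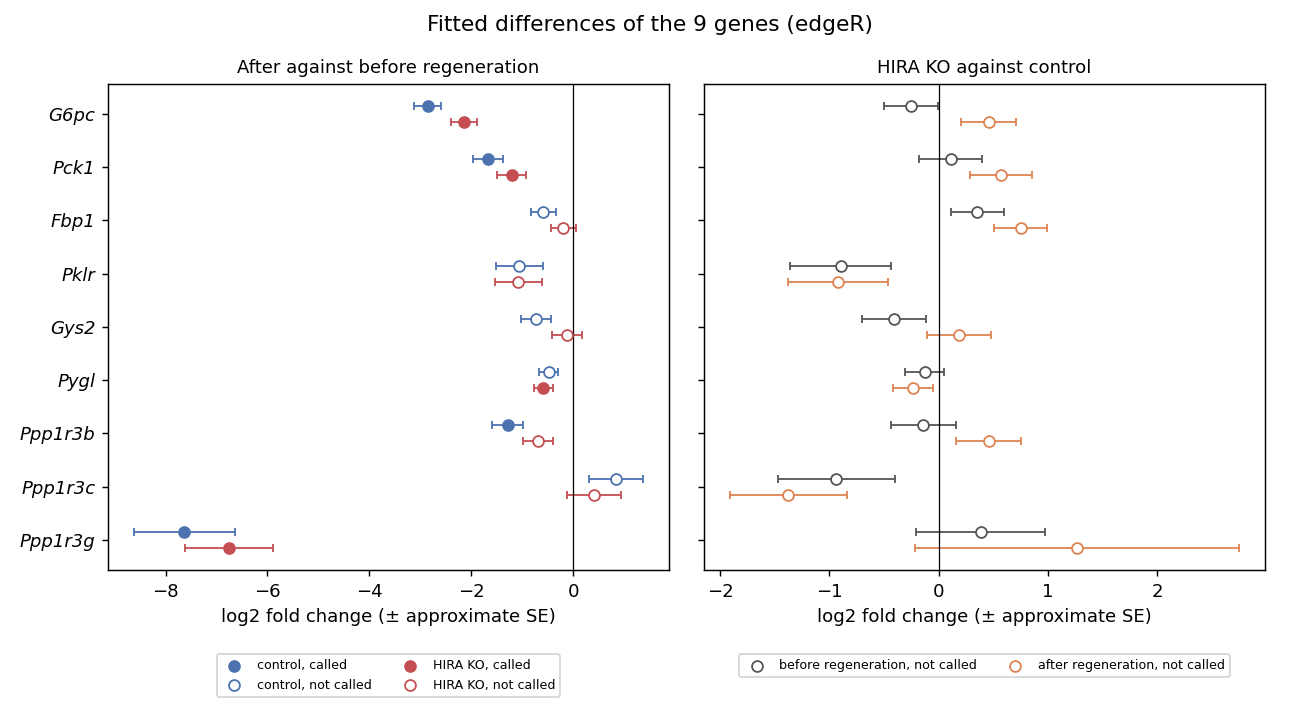
Log2 fold changes of the 9 genes from edgeR with approximate standard errors, after against before regeneration on the left and HIRA KO against control on the right, where filled points passed an adjusted p of 0.05. Filled points are G6pc, Pck1, Ppp1r3b and Ppp1r3g in control and G6pc, Pck1, Pygl and Ppp1r3g in HIRA KO, and all points of the right panel are hollow.

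Other cell types also differed between the times. Of 6 Kupffer cell markers all rose in both genotypes, with summed levels of 69.7 to 190 CPM in control before regeneration and 347 to 446 after it, and of 94.3 to 121 and 304 to 503 CPM in HIRA KO. All 4 proliferation markers rose as well, with sums of 2.79 to 7.33 CPM before and 29.9 to 222 after regeneration in control, and of 3.81 to 16.2 and 33.1 to 205 CPM in HIRA KO. Of the 6 hepatocyte markers 0 were called in control and 1, lower, in HIRA KO. The part of these differences in the fall of the glucose genes was not tested.

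The question of the second comparison was whether livers with HIRA deleted in hepatocytes differ in these genes from control at either time. Before regeneration 0 of the 9 genes passed the test, beside 0.0391% of all genes (edgeR adjusted p from 0.425 up), 0 had an unadjusted p under 0.05, beside 13.2% of all genes, and in 0 were the groups apart, beside 8.07%. After regeneration 0 passed, beside 0.491% of all genes, 2 had an unadjusted p under 0.05 (Fbp1 and Ppp1r3c), beside 15.8%, and in 0 were the groups apart, beside 8.10%. DESeq2 called 0 of the 9 before regeneration, beside 1.64% of all genes, and 1 after it, Fbp1, beside 3.98%. The median log2 fold change was -0.14 before and 0.46 after regeneration, beside 0.0094 and 0.02 over all genes.

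For G6pc the libraries of HIRA KO before regeneration (786 to 945 CPM) lay within the control range (547 to 1253), with a log2 difference of -0.25 and an approximate 95% interval from -0.78 to 0.27. After regeneration the difference was 0.46, with an interval from -0.07 to 0.99. Pck1 differed by 0.11 before (interval -0.49 to 0.71) and by 0.57 after regeneration (-0.03 to 1.17, edgeR adjusted p = 0.340), where HIRA KO library 2 alone lay at 2682 CPM. Without that library the value for Pck1 was 0.13. These intervals do not show that control and HIRA KO are alike.

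Fbp1 had the smallest adjusted p of the 9 genes after regeneration. Control libraries lay at 499 to 870 CPM and HIRA KO libraries at 820 to 1676, so that 1 control library lay within the HIRA KO range. The log2 difference was 0.75 ± 0.243 (n = 4, unadjusted p = 0.00644, edgeR adjusted p = 0.144). Adjusted p ranged from 0.0384, in DESeq2, to 0.264 over the other analyses of all libraries. Without the 4 HIRA KO libraries apart on the second component the difference was 0.36 ± 0.213 (edgeR adjusted p = 0.574).

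Pklr was low in the HIRA KO libraries that stood apart. Before regeneration libraries 1 and 2 held 86.5 and 113 CPM against 264 and 355 in libraries 3 and 4 and 314 to 427 in control. After regeneration libraries 1 and 2 again held the lowest values of their group. Fitted over all libraries, log2 differences were -0.90 ± 0.460 before (edgeR adjusted p = 0.425) and -0.92 ± 0.461 after regeneration (0.352), and without the 4 libraries they were -0.30 ± 0.398 and -0.48 ± 0.402 (adjusted p = 0.940 and 0.730). Before regeneration these 2 libraries also held the lowest HIRA KO values of Gys2, Pygl, Ppp1r3b and Ppp1r3c and, by a small margin, of Ppp1r3g. They held the highest HIRA KO values of Pck1 (4321 and 3442 CPM) and Fbp1 (1239 and 1640 CPM). Their sums of 7 stellate cell markers were the highest before regeneration (610 and 412 CPM, against 193 to 226 in the other libraries). So were those of 6 cholangiocyte markers (149 and 98.3 CPM, against 48.4 to 74.4). Those of 6 hepatocyte markers were the highest too (167565 and 152043 CPM, against 102795 to 133469). The part of cell composition in the low and high values was not tested.

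Ppp1r3c had the lowest fitted difference of the 9 genes at both times, -0.94 ± 0.534 before regeneration and -1.38 ± 0.536 after it (edgeR adjusted p = 0.481 and 0.232). After regeneration 3 control libraries lay at 134 to 151 CPM and 1 at 68.7, while HIRA KO ran from 15.5 to 81.7. Without the 4 libraries apart on the second component the differences were -0.54 ± 0.564 and -0.76 ± 0.564 (edgeR adjusted p = 0.917 and 0.692). Gys2, Pygl and Ppp1r3b differed by -0.41, -0.13 and -0.14 before regeneration and by 0.19, -0.23 and 0.46 after it, with edgeR adjusted p from 0.488 to 0.881. Without the 4 libraries they differed by -0.08, 0.0084 and 0.29 before and by 0.17, 0.0019 and 0.20 after regeneration. For Ppp1r3g 26 counts in HIRA KO and 9 in control were left after regeneration, too few for a comparison.

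Whether the step across regeneration differs between genotypes was tested as an interaction, in which 0 of the 9 genes and 0 of all 23018 genes passed (edgeR), and DESeq2 called 0 of the 9 and 67 of all genes (0.293%). At an unadjusted p under 0.05 there were 0 of the 9 and 6.81% of all genes. The lowest p of the 9 was that of G6pc, whose fall was 0.71 ± 0.353 smaller on the log2 scale in HIRA KO (approximate 95% interval -0.03 to 1.45, unadjusted p = 0.0602, edgeR adjusted p = 0.741). For Pck1 the value was 0.46 ± 0.402, for Fbp1 0.40 ± 0.342, for Gys2 0.59 ± 0.417 and for Ppp1r3b 0.60 ± 0.419. That Ppp1r3b passed in control and Pygl in HIRA KO alone is thus no tested difference. Without the 4 libraries apart on the second component the interaction was -0.09 ± 0.334 for Ppp1r3b, 0.25 ± 0.227 for Gys2, 0.23 ± 0.307 for Pck1, 0.22 ± 0.305 for Fbp1 and 0.66 ± 0.522 for G6pc.

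The wider pathway was described with 4 lists, in all 94 genes other than the 9. The lists were chosen with earlier results of these data known, so that their shares are a description without a test. Across regeneration in control 25 of the 94 passed (8 higher, 17 lower), or 26.6% beside 10.2% of all genes, and in HIRA KO 26 passed (8 higher, 18 lower), or 27.7% beside 12.0%. Without the 4 HIRA KO libraries apart on the second component they were 44 and 16, beside 17.9% and 10.3% of all genes in that fit. Of the genes that had passed with all libraries 25 of 25 still passed in control and 13 of 26 in HIRA KO. In HIRA KO those that no longer passed included Pck2, Hk2, Pygb, Pgm2, Gaa, Dusp1, Igfbp1 and Irs2. Without control library 3 after regeneration 16 passed in control, and in HIRA KO 12 passed without library 3 or 4 before, and 14, 16 and 15 without library 1, 2 or 3 after regeneration. Of all genes 1577 passed in that control fit, beside 2350 with all libraries. In those HIRA KO fits 1706, 1678, 2361, 2263 and 1860 of all genes passed, in the same order, beside 2764 with all libraries. Between HIRA KO and control 0 passed before and 2 after regeneration, beside 0.0391% and 0.491% of all genes, and the interaction had 0. The shares of all genes here and for the 9 genes are over 23018 genes with at least 10 counts. With a stricter edgeR filter on low counts 2733 of 15201 genes passed across regeneration in control and 3115 in HIRA KO. These are larger shares of all genes than those above.

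**Figure D4:**
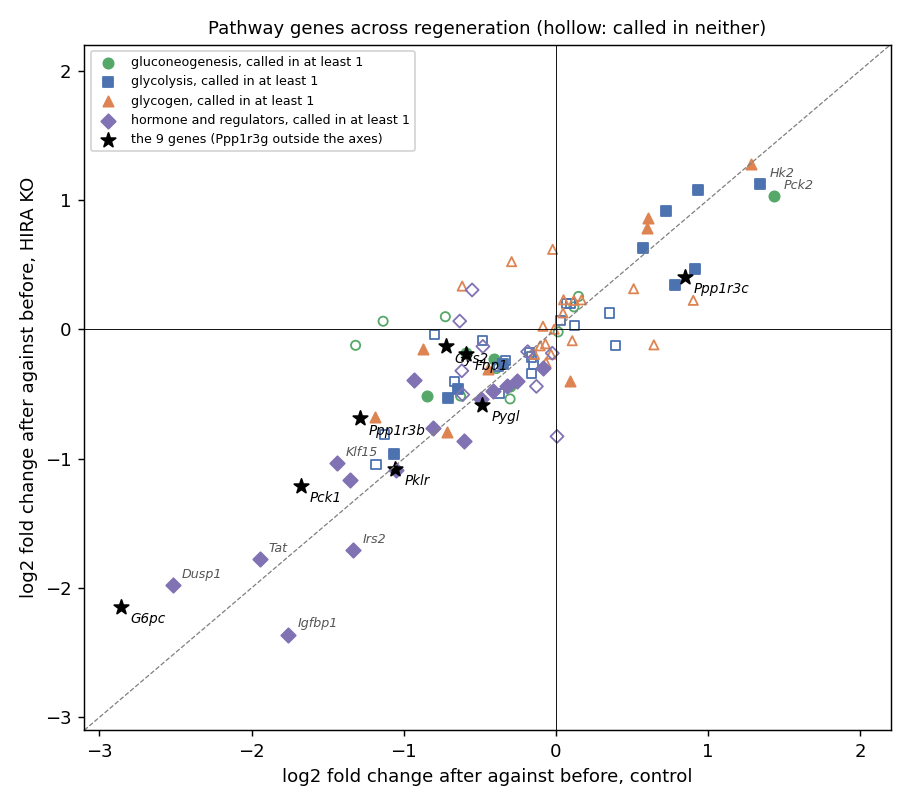
Log2 fold changes after against before regeneration of 94 pathway genes, in control across and in HIRA KO upwards, with the 9 genes as stars and the line of equal change dashed. G6pc, Dusp1, Tat and Pck1 lie far to the lower left and Pck2 and Hk2 to the upper right, and Ppp1r3g is outside the axes.

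Of 24 hormone targets and regulators, 6 fell (25.0%) and 0 rose in control, beside 4.17% of all genes that fell. In HIRA KO 14 fell (58.3%) and 0 rose, beside 5.53% of all genes that fell. Fitted values were below 0 for 23 of the 24 in control, where their median was -0.61. In HIRA KO they were below 0 for 22, and the median was -0.49. The interaction had 0 of these 24 genes, so that the larger count in HIRA KO is no tested difference. Tyrosine aminotransferase (Tat), a classic glucocorticoid target, had 2111 to 3153 CPM in control before regeneration and 513 to 974 after it, and fell in both genotypes (log2 fold change -1.95 ± 0.276 in control and -1.78 ± 0.275 in HIRA KO, edgeR adjusted p = 0.000463 and 0.000709). Dusp1, a phosphatase of stress kinases, fell too (-2.52 ± 0.335 and -1.98 ± 0.327). Klf15, a factor that drives amino acid use for glucose, fell likewise (-1.44 ± 0.169 and -1.04 ± 0.167), as did Txnip, which glucose induces (-1.36 ± 0.324 and -1.17 ± 0.322). In control the arrestin Arrdc4 (-0.93 ± 0.219) and Foxo3 (-0.80 ± 0.139) fell too. Foxo3 also passed in HIRA KO, where without the 4 libraries apart on the second component it had -0.61 ± 0.181 (edgeR adjusted p = 0.0436). In HIRA KO the insulin-repressed Igfbp1 fell by 2.36 ± 0.715 (edgeR adjusted p = 0.0493) and the insulin receptor substrate Irs2 fell by 1.70 ± 0.492 (adjusted p = 0.0404). In control these had -1.76 ± 0.699 and -1.33 ± 0.480 and did not pass (adjusted p = 0.143 and 0.103). Without the 4 libraries apart on the second component some calls of this list were lost in HIRA KO, while those in control held. The lost ones included Dusp1 (edgeR adjusted p = 0.0560), Igfbp1 (0.206) and Irs2 (0.131). As with G6pc and Ppp1r3g, control library 2 before regeneration was the lowest of its group for Igfbp1, at 82.1 CPM against 285 to 593.

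Among 28 glycolysis genes, 5 rose and 4 fell in control (32.1%, beside 10.2% of all genes that changed). In HIRA KO 4 rose and 1 fell (17.9%, beside 12.0%). Hk2, a hexokinase of muscle and of dividing cells, rose by 1.35 ± 0.281 in control and 1.12 ± 0.273 in HIRA KO on the log2 scale, and had 0.807 to 1.83 CPM in control before regeneration and 2.45 to 4.07 after it. Hk3, a hexokinase of myeloid cells, rose by 0.93 ± 0.221 and 1.08 ± 0.223. The aldolase Aldoa rose by 0.57 ± 0.134 and 0.63 ± 0.134. Pdk2, a kinase that holds back pyruvate oxidation, and the phosphofructokinase Pfkm fell in control (-0.65 ± 0.163 and -0.35 ± 0.0946). Pfkfb4 (0.91 ± 0.246) and the glucose transporter Slc2a1 (0.78 ± 0.153) rose in control and the pyruvate kinase Pkm (0.91 ± 0.261) in HIRA KO. Aldoa is listed under 2 gene IDs, of which the one with more counts is given. The Kupffer cell and proliferation markers given above rose in the same groups, and 3 muscle markers summed to 91.6 and 10.1 CPM in HIRA KO libraries 3 and 1 after regeneration and to at most 0.266 CPM in the other libraries. The part of other cells in these values was not tested.

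Of 15 further gluconeogenesis genes, 1 rose and 3 fell in control (26.7%, beside 10.2% of all genes that changed). In HIRA KO 1 rose and 1 fell (13.3%), close to the 12.0% of all genes. Pck2, the mitochondrial partner of Pck1, rose by 1.44 ± 0.286 in control and 1.03 ± 0.278 in HIRA KO on the log2 scale (edgeR adjusted p = 0.00475 and 0.0244) and had 3.02 to 5.72 CPM in control before regeneration and 8.02 to 17.1 after it. Slc37a4, which carries glucose-6-phosphate to G6pc, fell in control by 0.85 ± 0.233 (edgeR adjusted p = 0.0276), as did the alanine aminotransferase Gpt2 (-0.59 ± 0.171) and Mdh1 (-0.40 ± 0.125). In HIRA KO glycerol kinase (Gk) fell by 0.44 ± 0.105.

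Of 27 further glycogen genes, 2 rose and 4 fell in control (22.2%, beside 10.2% of all genes that changed). In HIRA KO 3 rose and 2 fell (18.5%, beside 12.0%). Glycogenin (Gyg), which primes glycogen, rose by 0.60 ± 0.163 in control and 0.78 ± 0.165 in HIRA KO on the log2 scale, and Pgm2 by 0.61 ± 0.172 and 0.86 ± 0.172. The subunit Ppp1r3e fell (-0.71 ± 0.204 and -0.79 ± 0.204). In control the laforin gene Epm2a (-1.19 ± 0.263), Stbd1 (-0.87 ± 0.144) and the phosphorylase kinase subunit Phkg2 (-0.44 ± 0.108) fell. In HIRA KO the phosphorylase Pygb rose by 1.28 ± 0.393 (edgeR adjusted p = 0.0490) and the acid glucosidase Gaa fell by 0.40 ± 0.110. After regeneration Pygb had 43.9 and 28.0 CPM in HIRA KO libraries 1 and 2, against 14.5 and 10.9 in libraries 3 and 4, and without the 4 libraries apart on the second component its log2 fold change was 0.77 ± 0.242 (edgeR adjusted p = 0.0540).

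Between HIRA KO and control after regeneration the 2 pathway genes that passed were both higher in HIRA KO. Stbd1, which tethers glycogen to membranes, had 45.9, 43.6, 64.8 and 59.0 CPM in control after regeneration, while HIRA KO had 87.1, 87.2, 72.5 and 101 CPM. The groups did not overlap, and the log2 difference was 0.71 ± 0.144 (n = 4, edgeR adjusted p = 0.0413). The alanine aminotransferase Gpt had 227, 192, 157 and 175 CPM in control and 486, 627, 266 and 264 in HIRA KO, again apart, with a difference of 1.13 ± 0.239 (edgeR adjusted p = 0.0457). Of the 94 genes 0 passed without the 4 libraries apart on the second component. With edgeR fitted to the 2 groups alone 0 of the 94 and 0 of all genes passed. With any 1 library of the 2 groups left out, except HIRA KO libraries 3 or 4, 0 of the 94 passed. DESeq2 called 8 of the 94, beside 3.98% of all genes.

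How the 9 genes varied among libraries of 1 group was described by the correlation of their deviations from the group means over 16 libraries, on the log2(CPM + 1) scale. Pklr and Pygl went together most closely (Pearson's r = 0.89). Pck1 went with Fbp1 (0.67) and G6pc with Ppp1r3g (0.67), and Ppp1r3c ran against Pck1 (-0.65) and Fbp1 (-0.64). Libraries share liver tissue, depth and, for some, mice, so that these values are a description without a test. The value for G6pc and Ppp1r3g includes control library 2 before regeneration, in which both were lowest. All values include HIRA KO libraries 1 and 2, which lay apart from the rest of their groups. At both times they held the lowest HIRA KO values of Pklr, Pygl and Ppp1r3c and the highest of Fbp1. For Pck1 they were highest before regeneration, and library 2 was highest after it. The part of this split in the correlations was not tested.

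**Figure D5:**
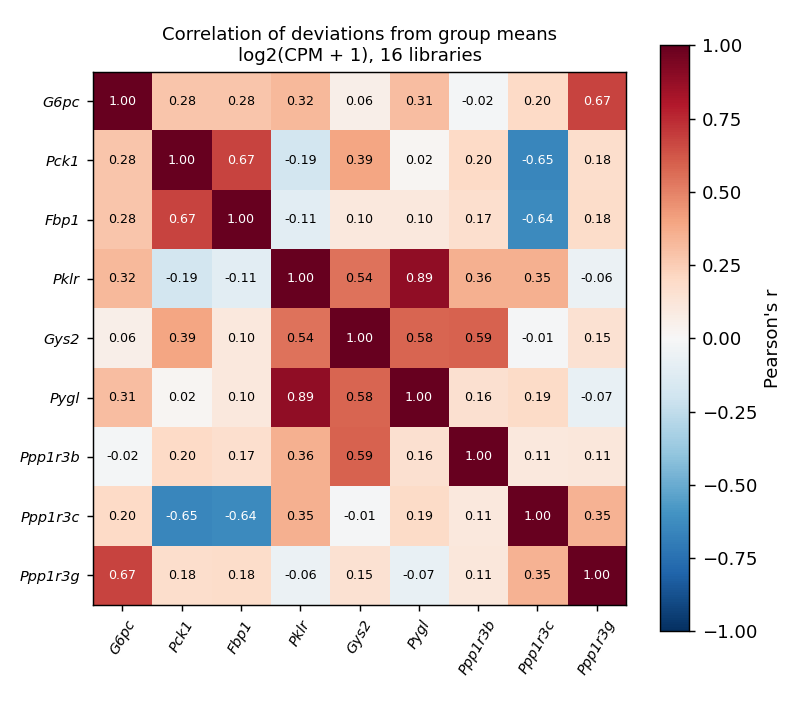
Pearson's r between the 9 genes for deviations from group means of log2(CPM + 1) over 16 libraries, from blue (-1) to red (1). Pklr with Pygl is highest at 0.89, and Ppp1r3c has its lowest values, -0.65 and -0.64, with Pck1 and Fbp1.

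Among all other genes with a mean of at least 1 CPM, the profile over the 16 libraries most like that of G6pc belonged to Slc25a25 (r = 0.97), Glrx2 (0.95) and Chrnb2 (0.94). Closest to Pck1 were Tat (0.95), Acad10 (0.94) and Ccn2 (0.93), and closest to Ppp1r3g were Zfp36 (0.96), Slc25a25 (0.95) and Polr3g (0.94). These profiles contain the step across regeneration. On deviations from group means the closest were Gm9752 (0.89), Rps6kb2 (0.85) and Rsrp1 (0.80) to G6pc, Ube2q1 (0.93), Glt1d1 (0.89) and Usf1 (0.89) to Pck1, and mt-Atp6 (0.85), mt-Atp8 (0.82) and Arl4d (0.81) to Ppp1r3g. Deviations also hold any difference of HIRA KO libraries 1 and 2 from the rest of their groups. The values for Ppp1r3g include control library 2 before regeneration, at 2.47 CPM against 25.2 to 40.2 in the rest of its group. Elsewhere Ppp1r3g ran from 31.4 to 35.4 CPM in HIRA KO before regeneration and reached at most 0.844 CPM after it. All these genes were picked as the highest among many and are a description without a test. None of the genes named in the comparison of profiles was also named by deviations.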

How the data were processed

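The 9 genes and the 4 pathway lists were chosen with earlier results of these data known, and the motifs after the values were seen. Per the methods of the study, the authors aligned reads with STAR to mm10 and obtained gene counts with HOMER, while the submitters' processing notes name HTSeq and Cufflinks. The deposited count table holds whole-number read counts, and the deposited FPKM, whose tool is not given in the sources used here, had empty cells that were read as 0. Columns name genotype and time only, so each served as a replicate of its group. Per the study, each group held 2 mice of each deletion approach. The columns do not say which library before regeneration shares a mouse with which after it. The tests thus treated all libraries as independent and left any pairing out. Genes with at least 10 counts in total (23018) were scaled by TMM (factors 0.915 to 1.10), and 4 group means were fitted with edgeR 4.0.16 (robust quasi-likelihood test, R 4.3.3, Benjamini-Hochberg adjustment over all genes, threshold 0.05). Standard errors and their intervals are approximate, from the F statistic. All 9 genes were named, and of the lists at most 6 called genes per direction and comparison with the largest change and a mean CPM of at least 1, except some that are not reported here. Each gene except Ppp1r3g had at least 350 counts in each library. The code was tested on simulated data. Alternatives were RLE scaling, DESeq2 1.42.0, other filters, a fit without robust estimation or to the groups compared alone, limma 3.58.1 on log2(FPKM + 1) and log2(FPKM + 0.1), and each library left out. Coordinates are GENCODE M21 on GRCm38.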

Additional observations from a re-analysis of the deposited data

Results flagged for a closer look

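In control after regeneration, library 4 had 719 CPM of Pck1, far below the other 3 at 1066 to 1105 (gap over range 0.901, beyond Dixon's 95% critical value for 4 samples). It was 1 of 36 sets of 4 libraries examined, and chance alone flags about 1 in 20.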

How the results depend on the processing

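No paired analysis was possible because the columns carry neither mouse, deletion approach nor the replicate numbers of the labels, and fits with mouse or approach as a term were not run. Across regeneration in control, called members numbered 4 to 5 under the alternatives except 7 without the 4 HIRA KO libraries apart on the second component, a setting added after seeing the data, and 4 to 5 with 1 library left out. Called pathway genes, 25 in the reported fit, were 41 with DESeq2, 39 with the groups compared alone, 14 and 15 with limma at pseudocounts of 1 and 0.1, 44 without the 4 libraries and 16 to 27 with 1 library left out. Counts of all genes moved too. In control 3282 of 22885 passed with DESeq2, 3275 of 20144 with the groups alone, 1907 and 2018 of 23018 with limma and 3858 of 21500 without the 4 libraries. In HIRA KO, called members were 2 with the groups compared alone, 3 to 4 with 1 library left out and otherwise 4 to 5, and pathway genes, 26 as reported, were 17 without a filter on low counts, 11 with the groups alone, 16 without the 4 libraries and 12 to 26 with 1 left out. Of all genes 2197 of 34224 passed there without a filter, 1431 of 20922 with the groups alone and 2225 of 21500 without the 4 libraries. For HIRA KO against control after regeneration DESeq2 called 1 member, and pathway genes, 2 as reported, were 8 with DESeq2, 1 without a filter, 1 without robust estimation, 0 with the groups alone, 0 with either limma fit, 0 without the 4 libraries and 0 to 4 with 1 left out. DESeq2 called 3.98% of all genes there. Signs turned, for values that passed no test, without the 4 libraries, where HIRA KO against control was -0.10 for Pck1, 0.29 for Ppp1r3b and 0.0084 for Pygl before regeneration and 0.0019 for Pygl after it, and the interaction was -0.0857 for Ppp1r3b and -0.12 for Ppp1r3g. In limma the interaction was 0.0583 and 0.0542 for Pklr and -0.79 and -0.83 for Ppp1r3g. With 1 library left out, HIRA KO against control before regeneration ran from -0.019 to 0.22 for Pck1, -0.31 to 0.0419 for Ppp1r3b and -0.0014 to 0.67 for Ppp1r3g, and after it from -0.12 to 0.46 for Gys2 and -0.0892 to 2.00 for Ppp1r3g. The change of Gys2 across regeneration in HIRA KO ran from -0.43 to 0.13, and the interaction from -0.27 to 0.38 for Pklr, -0.21 to 0.079 for Pygl and -0.47 to 1.62 for Ppp1r3g. Why counts and signs moved was not tested, apart from the smaller number of libraries in such fits. Depth limits Ppp1r3g after regeneration.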
